A study of Mus musculus with 3 samples.

Results

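NSC-34 is a mouse hybrid cell line made by fusing spinal cord cells enriched for motor neurons with neuroblastoma cells. PR20 is a synthetic proline-arginine dipeptide repeat peptide, modelled on a product of the repeat expansion in C9ORF72, and it is toxic to cells. Resistant clone 1 and clone 2 are both wild-type NSC-34 cells that became resistant to PR20 spontaneously, and both were kept in 10 µM PR20 for 3 weeks. The 1 remaining library comes from untreated wild-type NSC-34 cells, called the control here. It was used to ask where the clones lie beside untreated cells, and it also entered the scaling of the libraries. Each resistant line is 1 clone and 1 library, so the comparison of clone 2 with clone 1 has no replicate and no test. The genes compared are those with 20 or more reads summed over both clones, which are 12710 of the 22976 genes listed. The other 10266 genes had fewer reads and were left out, and 1769 of them had no read in either clone.

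Arginine-rich dipeptide repeat proteins are known to bind nucleic acids and acidic proteins, to collect in the nucleolus and to slow translation and nuclear transport. A population under a lethal dose leaves survivors that can differ from the parent and from each other, and setting one survivor beside another shows which features they do not share. The parent line carries motor neuron and sympathetic neuroblast ancestry, and the sympathetic programme rests on the transcription factors Phox2a and Hand2, among others, and on the receptor Ret.

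Levels are given as CPM, counts per 1000000 reads of the library after TMM scaling, and they are not corrected for gene length. Ratios are clone 2 over clone 1, so a value above 1 is higher in clone 2. Each ratio has an exact 95% interval that covers counting error only. Culture, RNA extraction and library preparation cannot be told apart from the clone with 1 library a side. Library totals were 11389663 reads in clone 1, 11307034 in clone 2 and 11700755 in the control, and 3 reads equal 0.267, 0.269 and 0.250 CPM. The motor neuron markers Chat and Lhx3 had no read in either clone, and Isl1 had 23 reads in clone 1 and 17 in clone 2. The sympathetic neuroblast markers, among them Phox2a, Hand2, Th and Dbh, summed to 583 CPM in clone 1, 506 in clone 2 and 993 in the control. Most of each sum came from Hand2 and Phox2a. Dbh had only 3 reads in clone 1 and 6 in clone 2, against 161 in the control.

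Clone 1 and clone 2 had closely similar transcriptomes. The median gene differed 1.06-fold between them in either direction, and for 87.0% of the 12710 genes the higher level was at most 25% above the lower. Among the 5356 genes with 1000 or more reads over both clones, the median fold was 1.04, 89.1% differed by at most 10% and 99.6% by at most 25%. Of these well-measured genes 19 differed by more than 25%, and 1 of them, Gm42418, by more than 1.5-fold. The spread of the log2 ratio in the same genes (an SD estimated from quantiles) was 0.08, against a typical counting SD of 0.06. Over all genes the mean squared deviation was 2.40 times the counting variance, or 2.004 times without Gm42418. The clones therefore differed by more than counting error, by a small amount in most genes.

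A gene was called different when even the end of its interval nearest to equality put one clone at least 25% above the other. By this rule 51 genes were called, which is 0.401% of the 12710, with 29 higher in clone 2 (0.228%) and 22 higher in clone 1 (0.173%). Of the called genes, 9 of the 29 and 6 of the 22 are predicted genes. Most called genes were sparsely read, with a median of 52 reads in each direction, and 20 of the 29 and 16 of the 22 had under 100 reads. Under a looser rule, with the interval merely clear of equality, 1528 genes (12%) differed, 794 higher in clone 2 (6.25%) and 734 higher in clone 1 (5.77%). Counting error alone would leave at most 5% of intervals clear of equality. The share under the looser rule depends on depth, from 6.23% of genes with 20 to 49 reads to 46.7% of the 300 genes with 10000 or more, so it favours lists of highly read genes. The calls just inside and just outside the stricter rule are alike: Zbtb42, higher in clone 1, has its nearer end at 25.3%, and Spdl1, a spindle checkpoint adaptor higher in clone 2, has it at 23.8%. With the nearer end past 1.5-fold, 16 genes (0.126%) remained, 10 higher in clone 2 (0.0787%) and 6 higher in clone 1 (0.0472%). A ratio of at least 2-fold with no regard to the interval was found for 175 genes (1.38%), 92 higher in clone 2 (0.724%) and 83 higher in clone 1 (0.653%).

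**Figure D1:**
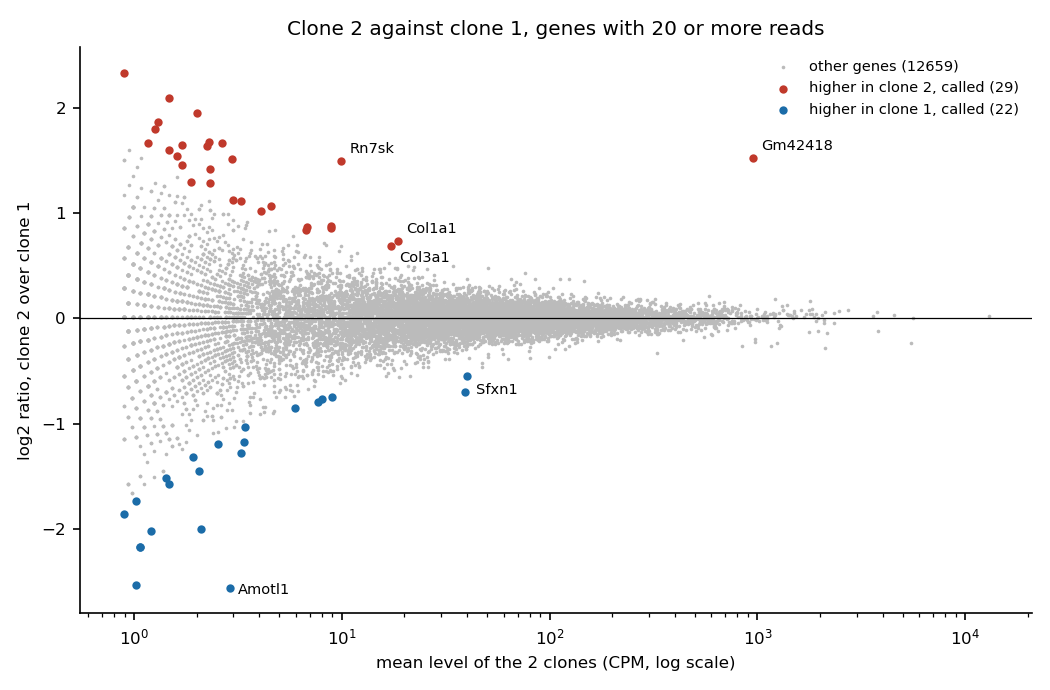
The log2 ratio of clone 2 over clone 1 (y axis) against the mean level of the clones in CPM (x axis, log scale) for 12710 genes, 1 point a gene. Coloured points are the 29 genes called higher in clone 2 and the 22 called higher in clone 1, most of them at low levels, and Gm42418 stands alone among highly read genes.

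Genes of G2 phase and mitosis were almost all slightly higher in clone 2. Of the 48 genes on the list, 47 had a ratio above 1, and for 35 of them the interval lay clear of equality, against 6.25% of all genes. For 0 genes did the interval lie below it, and the median log2 ratio was 0.13, against 0.0030 over all genes. None of the 48 reached the stricter rule. Summed over the list, clone 1 had 7354 CPM, clone 2 had 8103 CPM and the control had 5113 CPM, a ratio of 1.10 (interval 1.09 to 1.11) between the clones. In bulk RNA a larger share of cells in mitosis and more of these transcripts per cell cannot be told apart.

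The members with the intervals farthest above equality are given first. Plk1, the polo-like kinase of mitotic entry and spindle assembly, had 1217 reads in clone 1, 1568 in clone 2 and 1040 in the control, that is 108, 141 and 86.5 CPM. Its ratio was 1.30 (1.21 to 1.40), and clone 2 was the highest of the libraries. Cdc20, an activator of the anaphase-promoting complex, was at 57.0, 73.8 and 37.5 CPM in clone 1, clone 2 and the control, a ratio of 1.30 (1.17 to 1.44). The central spindle kinesin Kif23 was at 74.1, 96.0 and 41.5 CPM, also with a ratio of 1.30 (1.18 to 1.42). Cenpf, a kinetochore protein, was at 128, 164 and 92.4 CPM, with a ratio of 1.28 (1.19 to 1.37). All of these genes were ordered in the same way, with the control lowest, clone 1 next and clone 2 highest.

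Ratios varied among the other members. The kinesin Kif18a, with 193 reads in clone 1 and 245 in clone 2, had a ratio of 1.28 with a wider interval (1.06 to 1.56). The mitotic kinase Aurka had a ratio of 1.23 (1.13 to 1.33) and the cyclin Ccnb1 1.18 (1.11 to 1.26). The chromatin enzyme Top2a, much more highly read, was at 1258 CPM in clone 1 and 1367 in clone 2, a ratio of 1.09 (1.06 to 1.11), and the proliferation marker Mki67 had a ratio of 1.11 (1.08 to 1.15). The transcription factor Foxm1 (1.06, 0.980 to 1.14), the checkpoint kinase Bub1 (1.01, 0.939 to 1.08) and the survivin gene Birc5 (1.03, 0.948 to 1.11) had intervals that hold equality. The kinetochore gene Spc24, with 0.985 (0.864 to 1.12), was the 1 member with a ratio below 1. For 46 of the 48 genes the control lay below both clones, and for 45 clone 1 was the nearer clone to it. Genes of S phase leaned the same way. Of 50 DNA replication genes, 8 had an interval above equality and 1 below, against 6.25% and 5.77% of all genes. The replication list had a median log2 ratio of 0.04 and a summed ratio of 1.03 (1.02 to 1.04). The lists differ in depth and no test of the difference between them was made.

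**Figure D2:**
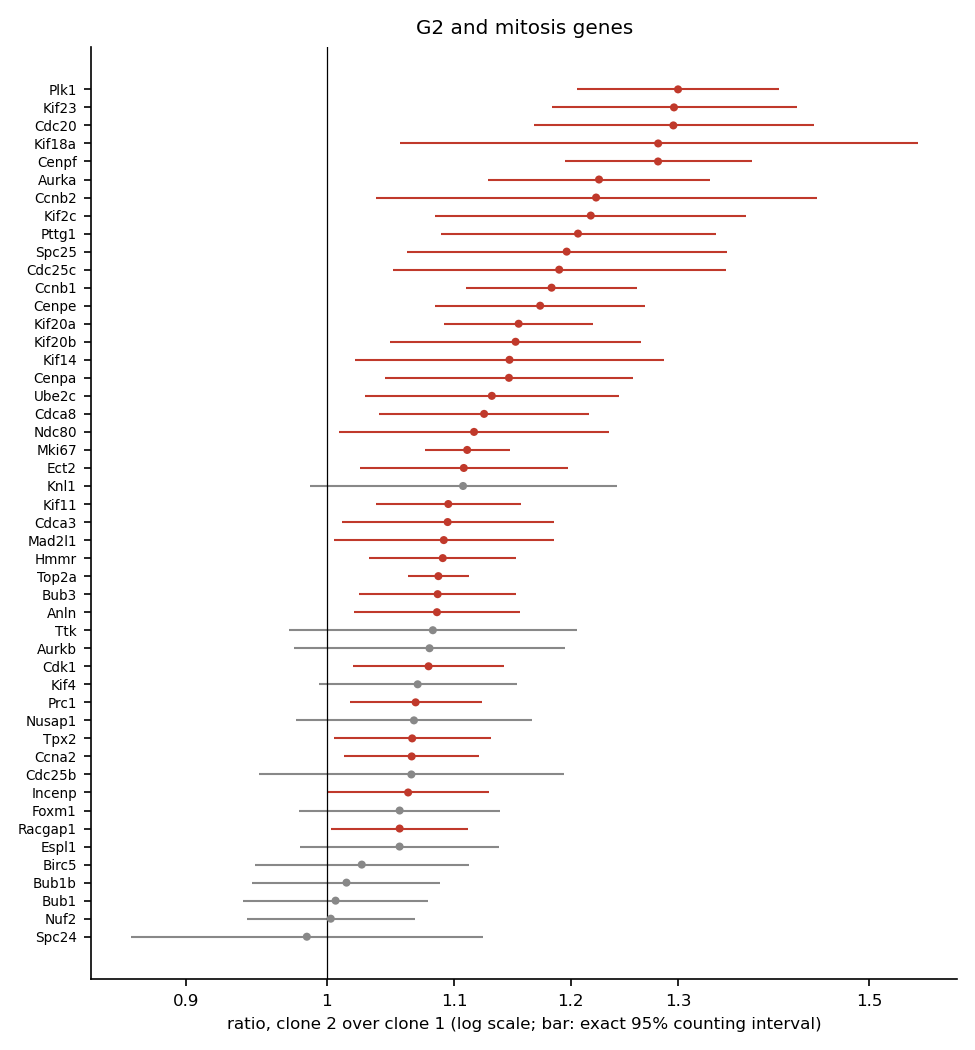
Ratio of clone 2 over clone 1 (x axis, log scale) for each gene of the G2 and mitosis list, with its exact 95% counting interval as a bar. Points lie to the right of equality for 47 of 48 genes, with Plk1 highest at 1.30 and Spc24 lowest at 0.985.

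Many mitotic genes are known to carry a cell cycle homology region, TTTGAA, near the start of transcription, often with CCAAT boxes upstream, and both elements are bound by factors that restrict the gene to late cell cycle. Both words were searched on both strands of the 300-base RefSeq promoter windows of GRCm38.p6, 250 bases before to 50 after the gene's start, and matches to them can share at most 1 base. Of the 48 list genes 40 had a window, and TTTGAA was present in 30 of these (75%), CCAAT in 29 (72.5%) and both in 25 (62.5%). Over the windows of 27025 genes the shares were 18.1%, 37.9% and 7.12%, and over the 9424 compared genes with a window they were 11.4%, 39.6% and 5.03%. TTTGAA was in 25 of the 30 windows of list genes whose interval lay above equality and in 5 of the 10 whose interval held it. Whether an interval is clear of equality depends on depth, and the difference between these shares was not tested. The 4 windows below are those of the mitosis genes described first, shown for the place of both words near the start. They are printed 5′ to 3′ on the gene's strand. Capitals mark each match to TTTGAA, or to the CCAAT box on either strand. They lie at chr7:122159185-122159484 (plus strand) for Plk1, chr1:189688037-189688336 (minus) for Cenpf, chr9:61946750-61947049 (minus) for Kif23 and chr4:118437294-118437593 (minus) for Cdc20. A match is a run of letters and not evidence of binding.
Plk1: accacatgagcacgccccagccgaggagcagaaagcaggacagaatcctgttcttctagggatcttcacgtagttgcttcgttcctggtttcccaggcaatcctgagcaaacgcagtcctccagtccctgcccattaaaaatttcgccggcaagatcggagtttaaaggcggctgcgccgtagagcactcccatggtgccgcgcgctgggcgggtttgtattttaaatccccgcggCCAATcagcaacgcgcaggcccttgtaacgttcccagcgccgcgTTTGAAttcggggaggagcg
Cenpf: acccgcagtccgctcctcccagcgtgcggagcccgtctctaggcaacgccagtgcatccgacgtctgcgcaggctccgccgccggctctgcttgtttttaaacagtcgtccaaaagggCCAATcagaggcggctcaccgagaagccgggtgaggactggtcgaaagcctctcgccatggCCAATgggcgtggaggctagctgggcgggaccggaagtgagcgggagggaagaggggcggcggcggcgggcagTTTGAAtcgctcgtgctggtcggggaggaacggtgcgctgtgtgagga
Kif23: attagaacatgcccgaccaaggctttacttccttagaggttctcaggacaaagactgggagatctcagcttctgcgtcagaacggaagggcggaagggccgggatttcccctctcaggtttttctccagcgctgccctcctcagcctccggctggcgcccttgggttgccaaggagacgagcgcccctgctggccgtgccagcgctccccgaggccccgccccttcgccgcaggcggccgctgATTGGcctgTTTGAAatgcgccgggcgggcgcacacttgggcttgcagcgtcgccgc
Cdc20: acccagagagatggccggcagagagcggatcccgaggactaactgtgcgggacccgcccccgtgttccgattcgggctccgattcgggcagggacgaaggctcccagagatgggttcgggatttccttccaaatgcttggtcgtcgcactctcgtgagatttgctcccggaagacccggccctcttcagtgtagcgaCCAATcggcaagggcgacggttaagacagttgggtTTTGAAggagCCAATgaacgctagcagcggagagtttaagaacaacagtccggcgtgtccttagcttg

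In each of these windows TTTGAA lies close to the start of transcription and at least 1 CCAAT box lies on its 5′ side. The first base of TTTGAA is at 31 in Plk1, 3 in Cenpf, 3 in Kif23 and -18 in Cdc20, counted from the annotated start. Plk1 and Cdc20 share exonic bases with the neighbouring genes Gm44985 and Elovl1, so their reads may be mixed there, because it is not known whether reads were assigned by strand.

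Genes of the sympathetic and neuroblastoma side of NSC-34 were, on balance, lower in clone 2. Of the 14 measured noradrenergic and sympathetic genes (24 on the list), 6 had an interval below equality and 1 above, against 5.77% and 6.25% of all genes. The median log2 ratio was -0.11. The list summed to 2037 CPM in clone 1, 1898 in clone 2 and 3420 in the control, a ratio of 0.932 (0.915 to 0.950). Some of its genes, such as Hand2 and Phox2a, are highly read, where the looser rule picks up small differences. The homeobox factor Phox2a, which specifies autonomic neurons, at 183, 157 and 218 CPM, had a ratio of 0.859 (0.805 to 0.916), and the bHLH factor Hand2, at 344, 312 and 409 CPM, had 0.905 (0.864 to 0.948). Both factors had the order control, clone 1, clone 2 from high to low.

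Other members of the list varied. Gch1, which makes the cofactor of tyrosine hydroxylase, had a ratio of 0.899 (0.847 to 0.954). Th, tyrosine hydroxylase itself, had 86 reads in clone 1 and 81 in clone 2 against 1347 in the control, a ratio of 0.950 with a wide interval (0.693 to 1.30). Chgb, a granule protein, had 31 reads in clone 1 and 14 in clone 2 against 4175 in the control, and its ratio was 0.456 (0.224 to 0.882). Insm1, a zinc finger factor of neuroendocrine cells, went the other way, with 12 reads in clone 1, 27 in clone 2 and 332 in the control (ratio 2.27, 1.11 to 4.92). For 13 of the 14 members the control lay above both clones, by a wide margin for Th and Chgb and by a small one for Hand2.

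Ret, the receptor for GDNF-family ligands, was at 1034 CPM in clone 1, 902 in clone 2 and 946 in the control. The ratio was 0.873 (0.850 to 0.897), and the control lay between the clones, nearer to clone 2. Ret supplied 75.5% of the reads of the motor neuron and cholinergic list, in which 10 of 17 genes were measured. That list had 3 intervals below equality and 1 above. Of 29 measured genes of the neuronal cytoskeleton and synapse, 7 had an interval below equality and 0 above. The shares over all genes were 5.77% below and 6.25% above. The cytoskeleton and synapse list had a summed ratio of 0.958 (0.945 to 0.971). The adhesion molecule L1cam had 315 and 233 reads in clone 1 and clone 2 against 4155 in the control, with a ratio of 0.746 (0.627 to 0.887).

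Of 32 axon guidance genes, many of them highly read, 8 intervals lay below equality and 3 above, against 5.77% and 6.25% of all genes, and the median log2 ratio was -0.07. Slit3, a secreted repellent ligand of ROBO receptors, had 4111 reads in clone 1, 3238 in clone 2 and 5728 in the control. At 366, 291 and 477 CPM, its ratio was 0.795 (0.759 to 0.832), and clone 1 was the nearer to the control. Of the clustered protocadherins, cell-recognition molecules of neurons, 21 of 53 were measured, 4 intervals lay below equality and 0 above, 1 of them called (Pcdhb2), and the summed ratio was 0.902 (0.850 to 0.958).

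Transcripts of the mitochondrial genome were, in sum, lower in clone 2. They made up 1.46% of reads in clone 1, 1.247% in clone 2 and 1.72% in the control. Of the 15 mitochondrially encoded genes on the list, 9 had an interval below equality and 1 above, against 5.77% and 6.25% of all genes. The list had a median log2 ratio of -0.22 and a summed ratio of 0.858 (0.852 to 0.864). Many of its genes are highly read, where the looser rule picks up small differences. The 4 measured mitochondrial tRNA genes were not on the list. They summed to 123 reads in each clone, a ratio of 1.01 (0.779 to 1.31). The cytochrome b gene mt-Cytb was at 5888 CPM in clone 1, 5021 in clone 2 and 6276 in the control, a ratio of 0.853 (0.843 to 0.862). The complex I gene mt-Nd1 was at 1274, 1061 and 1854 CPM, with a ratio of 0.833 (0.813 to 0.853), and the cytochrome oxidase gene mt-Co1 had 0.905 (0.889 to 0.922). mt-Nd5 had a ratio of 0.821 (0.806 to 0.836), and here the control, at 1922 CPM, was close to clone 2 at 1898 and not to clone 1 at 2312. The 1 gene with an interval above equality was mt-Rnr1, the small ribosomal RNA, at 1.17 (1.08 to 1.28), while the large ribosomal RNA mt-Rnr2 had 0.929 (0.890 to 0.971). No mitochondrial gene reached the stricter rule.

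**Figure D3:**
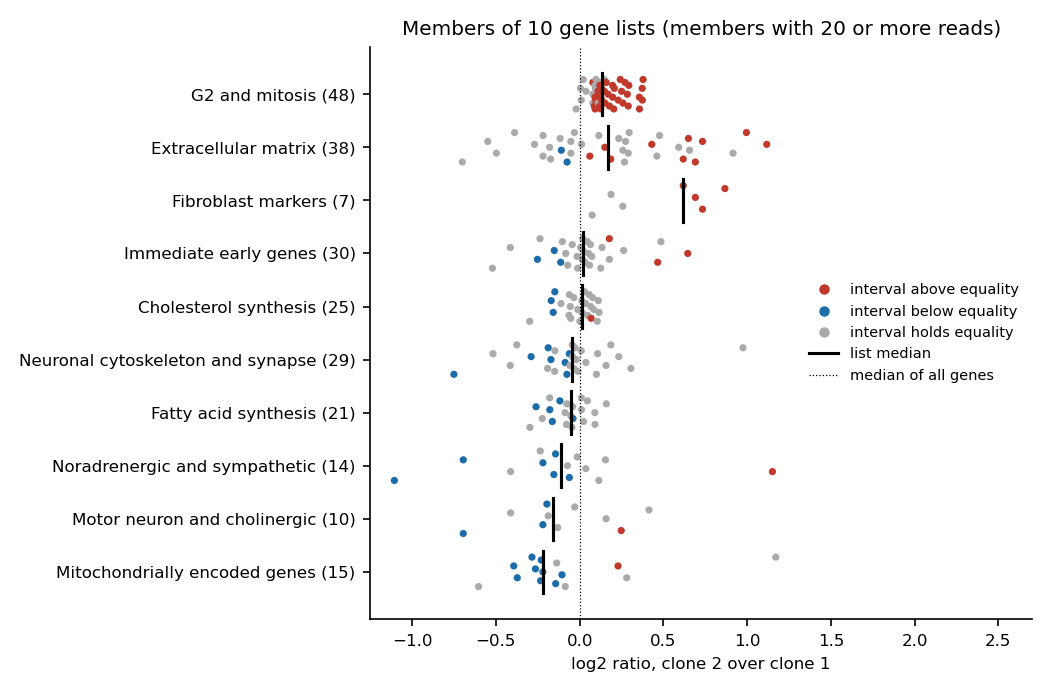
Log2 ratio of clone 2 over clone 1 (x axis) for the measured members of 10 gene lists, 1 point a gene, coloured by whether the counting interval lies above, below or across equality, with the list median as a bar and the median of all genes as a dotted line. The median of G2 and mitosis is 0.13 and that of the mitochondrially encoded genes is -0.22.

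Interstitial collagens and other fibroblast-type genes were higher in clone 2. Col1a1, a chain of type I collagen, had 157 reads in clone 1, 259 in clone 2 and 161 in the control, at 13.96, 23.2 and 13.4 CPM. Its ratio was 1.66 (1.36 to 2.04), and clone 1 was close to the control with clone 2 above both. The partner chain Col1a2 had 105, 160 and 96 reads, with a ratio of 1.54 (1.19 to 1.99), and the type III collagen Col3a1 had 148, 237 and 110 reads, with a called ratio of 1.62 (1.31 to 1.998). Thy1, a surface glycoprotein of fibroblasts and neurons, had 54 reads in clone 1, 98 in clone 2 and 162 in the control (1.83, 1.30 to 2.60), and the matrix glycoprotein Tnc had 23, 50 and 29 reads (2.19, 1.31 to 3.77). Fbln2, a matrix fibulin, was at 64.6, 87.1 and 35.3 CPM, with a ratio of 1.35 (1.22 to 1.49).

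The fibroblast-type list had 7 measured genes of 10, all with a ratio above 1, of which 4 had an interval clear of equality and 3 were called. Its median log2 ratio was 0.62, its sum 100.5 CPM in clone 1, 132 in clone 2 and 104 in the control, and the ratio of the sums 1.31 (1.21 to 1.42). The receptor Pdgfra, its most read gene, had a ratio of 1.05 (0.928 to 1.20), and without it the summed ratio was 1.51. The wider list of 50 matrix genes, which shares the collagens with the fibroblast-type list, had 38 measured, 10 intervals above equality and 2 below, and 3 called genes. For all genes, 6.25% of intervals lay above equality and 5.77% below, and 0.401% of genes were called. The median log2 ratio of the matrix list was 0.17. Sparc, a matrix glycoprotein and by far the most read member, had a ratio of 1.14 (1.11 to 1.16). Fibronectin, Fn1, was lower in clone 2, with 0.927 (0.887 to 0.969). The summed ratio of the matrix list was 1.07 (1.05 to 1.08), and without Sparc it was 1.03.

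Markers of other cell types were checked beside these genes. The fibroblast markers summed to 97.5 CPM in clone 1, 128 in clone 2 and 102 in the control, with Pdgfra alone at 42.9, 45.2 and 51.7 CPM. The epithelial markers Epcam, Cdh1, Krt8 and Krt18 summed to 9.16, 13.5 and 10.8 CPM, a ratio of 1.47 (1.14 to 1.91), and the endothelial markers to 15.7, 17.6 and 31.9 CPM (1.12, 0.907 to 1.38). The myeloid markers summed to 4.001, 5.20 and 3.24 CPM, with Aif1 at 0 reads in both clones and Ptprc at 0 in clone 1 and 2 in clone 2. The glial markers summed to 6.31, 5.92 and 7.49 CPM. Whether a few cells of another kind had a part in the collagen values was not tested.

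Of the RNAs that do not code for protein, 3 nuclear or ribosomal ones were higher in clone 2, chosen here after their values were seen. Gm42418 (chr17:39846958-39848788, plus strand, GRCm38), a locus whose exon overlaps AY036118 and whose sequence is known to resemble ribosomal RNA, had 5500 reads in clone 1, 15660 in clone 2 and 18310 in the control. At 489, 1405 and 1523 CPM its ratio was 2.87 (2.79 to 2.96), the only difference past 1.5-fold among genes with 1000 or more reads. Here clone 1 stands apart, and clone 2 lies close to the control. Its share of the library was 0.0483% in clone 1, 0.138% in clone 2 and 0.156% in the control.

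Rn7sk (chr9:78175303-78175633, minus strand), the 7SK RNA that holds the elongation factor P-TEFb inactive, had 58 reads in clone 1, 163 in clone 2 and 68 in the control, a ratio of 2.84 (2.09 to 3.90). Clone 2 was the library apart in this case. Rn7sk is not polyadenylated, and the libraries were made with a kit for mRNA, and whether leftover RNA of other kinds had a part in the values of Rn7sk and Gm42418 was not tested. Malat1, a nuclear speckle RNA, was at 97.1, 126 and 106 CPM, with a ratio of 1.30 (1.20 to 1.40), while the paraspeckle RNA Neat1 had 147 and 148 reads in clone 1 and clone 2. Xist, the RNA of the inactive X chromosome, had 10244 and 10286 reads, a ratio of 1.01 (0.986 to 1.04).

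The called genes below were named by the distance of the interval from equality, and most were outside the lists. Amotl1 (chr9:14541966-14645056, minus strand), an angiomotin family protein that binds YAP and the tight junction, had 56 reads in clone 1, 9 in clone 2 and 59 in the control, at 4.98, 0.807 and 4.91 CPM. Its ratio was 0.162 (0.0705 to 0.330), with the interval farthest from equality among the named genes lower in clone 2, and clone 1 was at the level of the control. The transcription coactivator Yap1, looked at after seeing Amotl1, had 20 reads in clone 1, 40 in clone 2 and 24 in the control (2.02, 1.15 to 3.64). None of the related genes looked at with it had an interval above equality. Tead2 had an interval below equality (0.914, 0.844 to 0.991). The intervals of Wwtr1, Lats1, Lats2, Tead1, Amotl2, Amot, Cyr61 and Ctgf held equality. Sfxn1, a mitochondrial serine transporter, had 536 reads in clone 1, 364 in clone 2 and 795 in the control, a ratio of 0.685 (0.598 to 0.784), again with clone 1 the nearer. Celf6, a neuronal RNA-binding protein, had 40, 17 and 578 reads (0.429, 0.228 to 0.774), and Padi3, a peptidylarginine deiminase, had 53, 23 and 171 (0.438, 0.256 to 0.727). The interferon-induced gene Oasl2, the 1 called member of the interferon list, had 109, 62 and 67 reads (0.574, 0.413 to 0.791), so clone 1 was the higher of the libraries. Tusc5, Ninl, Tnnt1, Zfp781, Inha and Pcdhb2 were also called lower in clone 2, at 18 to 31 reads in clone 1 and 3 to 12 in clone 2.

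Among genes called higher in clone 2, the next after Rn7sk by the same rank was Gimap9, a GTPase of the immunity-associated family, with 9 reads in clone 1, 36 in clone 2 and 22 in the control (4.04, 1.91 to 9.53). Rnf135, a ubiquitin ligase of the RIG-I pathway, had 6, 27 and 31 reads (4.54, 1.84 to 13.5), and Mrap, an accessory protein of the ACTH receptor, had 12, 39 and 34 reads (3.28, 1.68 to 6.88). In both of these clone 2 was at about the control level and clone 1 was low. Serpina3n, a secreted protease inhibitor, had 12 reads in clone 1, 38 in clone 2 and 2 in the control (3.20, 1.63 to 6.72), and Plac8, a small cysteine-rich protein, had 14, 38 and 1 (2.74, 1.45 to 5.47). Both were at a few reads at most in untreated cells. Metrnl, a secreted meteorin-like protein, had 70, 128 and 119 reads (1.85, 1.37 to 2.51). The vitamin D hydroxylase Cyp24a1 had 6, 23 and 67 reads. Gprc5b, Serpine2 and Gpatch3 were also called higher in clone 2, at 6 to 33 reads in clone 1 and 22 to 69 in clone 2.

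**Figure D4:**
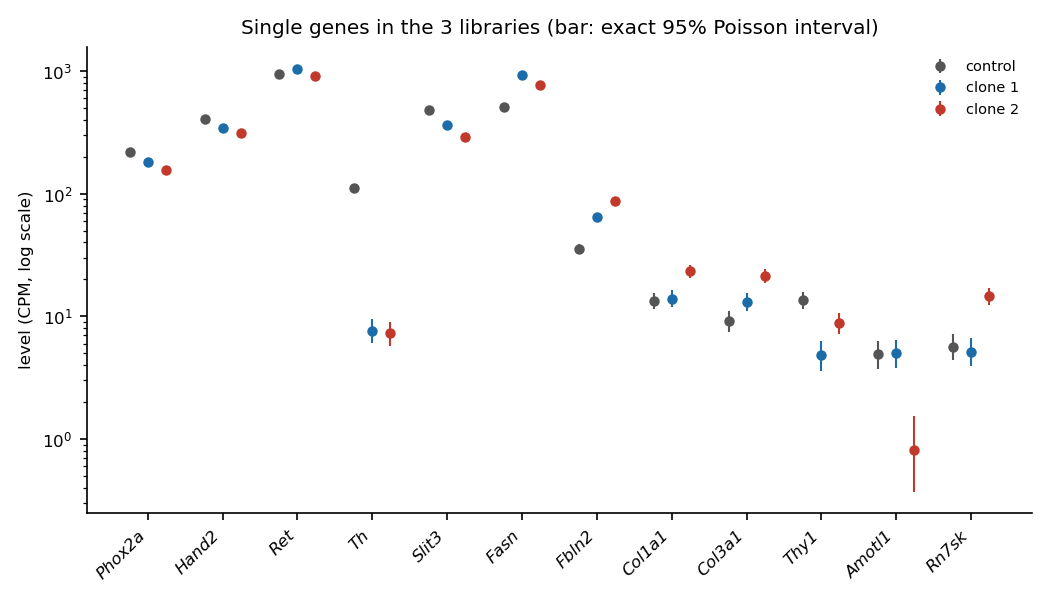
Level in CPM (y axis, log scale) of single genes in clone 1, clone 2 and the control, with exact 95% Poisson intervals as bars. The distance between the clones is small beside their distance from the control for Th, while Amotl1 is low in clone 2 alone and Rn7sk is high in clone 2 alone.

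Several genes of fatty acid synthesis and of the lysosome were lower in clone 2. Of 21 fatty acid synthesis genes, 5 had an interval below equality and 0 above, against 5.77% and 6.25% of all genes. Their summed ratio was 0.932 (0.923 to 0.940). Fasn, the fatty acid synthase, had 10361 reads in clone 1, 8572 in clone 2 and 6133 in the control, that is 921, 769 and 510 CPM. Its ratio was 0.835 (0.811 to 0.859), and clone 2 was the nearer to the control. The desaturase Scd1 had a ratio of 0.884 (0.853 to 0.916), and the regulator of the pathway, Srebf1, which was counted with cholesterol synthesis, had 0.896 (0.866 to 0.927). Both were lowest in the control. Of 25 cholesterol synthesis genes 3 intervals lay below equality and 1 above, but 14 ratios were above 1 and the median log2 ratio was 0.01. Of 37 lysosome and autophagy genes, 8 had an interval below equality and 0 above, against the same shares of all genes. Among the 8 were the cathepsins Ctsa, Ctsb and Ctsd, the autophagy protein gene Map1lc3b and Smcr8, a partner of C9ORF72. The summed ratio of this list was 0.972 (0.962 to 0.983). Both lists hold highly read genes, where the looser rule picks up small differences. For the proteasome, the other main route of protein degradation, 25 of 35 ratios lay above 1, with a summed ratio of 1.02 (1.01 to 1.03). There 4 intervals lay above equality and 1 below, against 6.25% and 5.77% of all genes.

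Many ribosomal protein genes and some cytosolic chaperones were slightly higher in clone 2. The shares over all genes were 6.25% of intervals above equality and 5.77% below. Cytosolic ribosomal protein genes, a list added after values were seen, had 83 of 88 measured, of which 40 had an interval above equality and 1 below, but the summed ratio was 1.03 (1.03 to 1.04) and none was called. The sums were 57618 CPM in clone 1, 59624 in clone 2 and 51343 in the control. These genes are among the most highly read, where the looser rule picks up small differences. Of 28 cytosolic chaperone genes 7 intervals lay above equality and 1 below, led by the constitutive chaperone Hspa8 at 1677 CPM in clone 1, 1886 in clone 2 and 1894 in the control (1.12, 1.10 to 1.15). The unfolded protein response list, which holds the chaperones of the endoplasmic reticulum, had 10 ratios above 1 and 16 below, with 3 intervals above equality and 1 below and a summed ratio of 0.991 (0.982 to 1.0002). Of 41 targets of the amino acid stress factor ATF4, 9 lay above and 5 below, with a summed ratio of 1.03 (1.02 to 1.04). The chaperone, unfolded protein response and ATF4 lists also hold highly read genes.

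Lists tied to the uptake and modification of arginine-rich peptides had summed ratios close to 1, with the endocytosis sum slightly lower in clone 2. Over all genes, 6.25% of intervals lay above equality and 5.77% below. Of 36 endocytosis genes, 3 had an interval above equality and 5 below, and the summed ratio was 0.968 (0.956 to 0.981). The 1 called member was Lrp2, the endocytic receptor megalin, with 6 reads in clone 1, 20 in clone 2 and 87 in the control (3.36, 1.30 to 10.2). Of 27 heparan sulfate genes, 0 had an interval above equality and 1 below, with a summed ratio of 0.989 (0.973 to 1.01). Of 11 arginine methyltransferase genes 0 lay above and 1 below. Among other lists, 1 of 19 BET and histone deacetylase genes lay above and 3 below, and the 22 measured Hox genes had 0 in either direction. Of the 47 lists compared, 39 had no called member and 37 had a median log2 ratio between -0.1 and 0.1.

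Differences were spread over the nuclear chromosomes. The median log2 ratio was between -0.0101 and 0.0130 on each of chromosomes 1 to 19 and X. It was -0.14 for the 19 measured genes of the mitochondrial genome, here with its tRNA genes. Along the chromosomes, 246 windows of 50 neighbouring genes had medians between -0.07 and 0.07. Medians in 5 equal bins of GC content and 5 of transcript length, over 10448 genes with 100 or more reads, lay between -0.01 and 0.01.

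**Figure D5:**
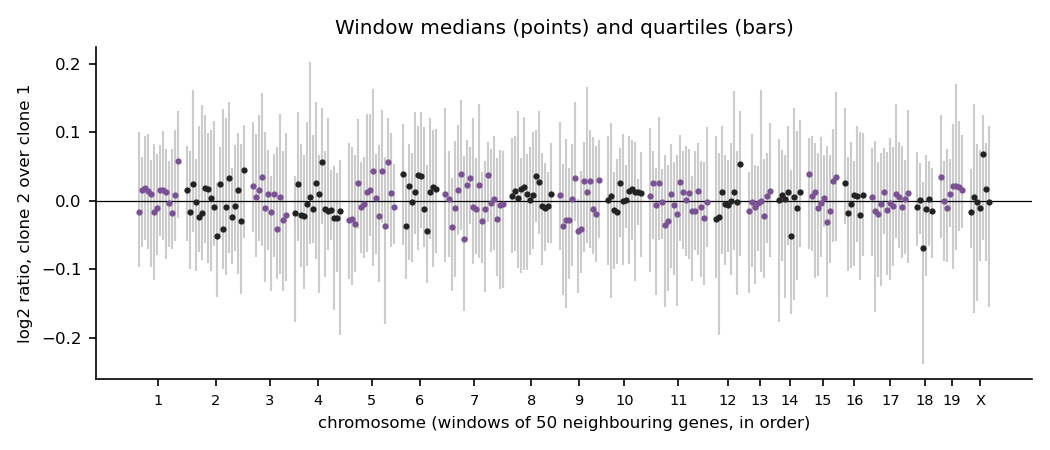
Median log2 ratio of clone 2 over clone 1 (y axis) in 246 windows of 50 neighbouring genes ordered along the chromosomes (x axis), with quartiles as bars. All medians lie between -0.07 and 0.07.

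Neither clone was uniformly the nearer to untreated cells. Over all 12710 genes clone 1 was nearer in 6657 (52.4%). Over the 51 called genes it was nearer in 29 (56.9%, exact binomial interval 42.2 to 70.7, over genes that are not independent). By direction, clone 1 was nearer in 17 of the 22 genes called higher in clone 1 and in 12 of the 29 called higher in clone 2. The control lay between the clones in 29 of the 51 called genes, above both in 14 and below both in 8. Over all 12710 genes it lay between in 1447, above both in 5372 and below both in 5891. Called genes were picked for a wide gap between the clones, which leaves more room for the control to lie between, so these counts are not alike. Under the looser rule clone 1 was nearer in 900 of 1528 genes (58.9%), in 528 of the 794 higher in clone 2 and in 372 of the 734 higher in clone 1. By group, clone 1 was nearer in 45 of 48 mitosis genes, 25 of 38 matrix genes and 9 of 14 sympathetic genes, and clone 2 was nearer in 13 of 21 fatty acid synthesis genes and 15 of 21 clustered protocadherins.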

How the data were processed

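Polyadenylated RNA of 3 cultures (untreated NSC-34, clone 1, clone 2) was sequenced as strand-specific mRNA libraries, according to the labels. The deposited counts are whole reads per gene, which the authors obtained from STAR 2.5 on GRCm38/mm10 and Gencode M16 (Ensembl 91), per the file headers, and STAR 2.5.3, bcl2fastq and DESeq2 are named in the submitters' processing notes. How strand was treated in counting is not stated, so overlapping genes may share reads. The authors' own comparison pools both clones and was not used. Library totals were 11389663 (clone 1), 11307034 (clone 2) and 11700755 reads (control).

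TMM factors came from edgeR 4.0.16 in R 4.3.3 over the 3 libraries, and intervals from scipy 1.17.1: the exact conditional binomial (Clopper-Pearson, 95%) of the scaled reads, which was checked on simulated data and covers counting error only. Log2 ratios used a prior of 0.5 reads. Positions came from Gencode M21 (GRCm38), for 12700 of 12710 genes, and promoter sequences from RefSeq (GRCm38.p6). Gene lists held 1465 symbols, of which 90 were not in the file. Named genes were the 12 called genes in each direction with the interval farthest from equality, up to 4 called genes a list, and, since no other gene of 50 CPM or more was called, the same rank among genes with an interval clear of equality, which was added after seeing the data. Predicted genes were counted and not named, except Gm42418, and a few genes that the rule names are not reported here. The genes, lists and rules were chosen with earlier results of these data known. Alternatives were library totals or RLE for scaling, other minimum reads and other call rules.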

Additional observations from a re-analysis of the deposited data

Results flagged for a closer look

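For 7 named genes, counting intervals placed the clones on opposite sides of the untreated control, 5 higher in clone 2 and 2 higher in clone 1. With 1 library each the difference was not tested. Gimap9 had a ratio of clone 2 to clone 1 of 4.04 on 9, 36 and 22 reads in clone 1, clone 2 and the control. Malat1 had 1.30, the thioesterase gene Acot7 had 1.15, and the ribosomal protein genes Rpl30 and Rpsa had 1.13 and 1.05. Ret had 0.873 and the melanoma antigen family gene Maged1 had 0.950.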

How the results depend on the processing

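Scaling by library totals or by RLE size factors left the counts at 29 genes higher in clone 2 and 22 higher in clone 1. The counts depend on the rule. They were 18 and 11 with 50 or more reads, 50 and 43 with no minimum of reads, 794 and 734 with an interval clear of equality, 10 and 6 with an interval past 1.5-fold, and 92 and 83 with a ratio of at least 2-fold. The share of called genes nearer to the control in clone 1 was 54.3% to 58.9% under these settings, except 43.8% with an interval past 1.5-fold (16 genes). The summed ratio moved without the most read gene in 15 of 47 lists, and the median in 3 lists with 50 or more reads. No paired analysis was possible because each clone is 1 library, and for the same reason no replicate could be left out. Depth limits most called genes: 20 of the 29 and 16 of the 22 had under 100 reads.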
